A study of Mus musculus with 29 samples.

Results

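Small nucleolar RNA (snoRNA) genes, small Cajal body RNA genes, microRNA genes and the long, mostly noncoding transcripts that host such RNAs or stay in the nucleus were followed in cultures of adult mouse cortical neurons. Members were the genes of the authors' deposited table whose symbols belong to these families, 44 of the 5826 genes it lists. They comprised 6 box C/D snoRNAs, 8 box H/ACA snoRNAs, 2 small Cajal body RNAs, 14 microRNA genes, the RNase P RNA gene Rpph1 and 13 long transcripts. A gene is in the table only if the authors' adjusted p was under 0.1 at 1 or more days, so every member was called somewhere by construction. The highest of the members' smallest adjusted p-values was 0.0951, for Rpph1, per the authors' deposited table, and values of genes just outside the threshold were not used here.

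Cultures came from wild-type adult C57/BL6 mice and are labelled as neurons of primary cortical culture. Lesion animals had a conditioning lesion in vivo a day before plating, and naive animals had no treatment. Libraries were made at days 1, 2, 3, 5 and 7 with 3 libraries per group, except 2 for naive at day 7, 29 in all. The labels do not say where the lesion was placed, which sex the animals had, or whether the libraries within each group are from distinct cultures, so p-values may measure technical spread only. For each day the authors give a log2 fold change of lesion against naive, a p-value and an adjusted p-value. No value per library was used, so depth is unknown and overlap of single libraries cannot be shown. In the text "rose" and "fell" mean an adjusted p under 0.1 at that day, positive values mean higher in lesion cultures, and ± gives the standard error implied by the fold change and its p-value.

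Box C/D snoRNAs guide 2'-O-methylation, and box H/ACA snoRNAs guide pseudouridylation, mostly of ribosomal RNA. Small Cajal body RNAs do the same for spliceosomal RNAs. Most mammalian snoRNAs and many microRNAs are cut from introns of a host gene, so a host promoter drives both the small RNA and the host's spliced product. Many snoRNA hosts are ribosomal protein or translation factor genes. Others, most Snhg genes and Gas5, are noncoding, and their spliced RNAs are mostly degraded through nonsense-mediated decay. In neurons, the long nuclear transcripts Malat1 and Meg3 are abundant.

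The snoRNAs shown here include the lowest day 5 fold change of the members (Snora31), the H/ACA member with the smallest p for heterogeneity over days (Snora3), 2 whose host gene is also listed (Snora64, Snord69), and the C/D members with the smallest such p (Snord4a, Snord12). Sequences are GENCODE vM21 transcripts of GRCm38, the assembly of mm10, written 5′ to 3′ as DNA letters. In box C/D members the capitals mark NTGATGA, read here as the C box, within the first 25 bases, and CTGA, the D box, within the last 20. In box H/ACA members they mark ACA within the last 8 bases. Only the transcript strand was searched.
Snora31, chr14:75847905-75848034, plus strand: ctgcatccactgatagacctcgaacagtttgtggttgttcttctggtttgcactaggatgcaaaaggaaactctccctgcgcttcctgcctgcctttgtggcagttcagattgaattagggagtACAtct
Snora3, chr7:109520120-109520251, plus strand: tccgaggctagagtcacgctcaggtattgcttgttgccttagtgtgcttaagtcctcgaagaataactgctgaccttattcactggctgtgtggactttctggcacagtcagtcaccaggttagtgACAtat
Snora64, chr17:24720772-24720905, plus strand: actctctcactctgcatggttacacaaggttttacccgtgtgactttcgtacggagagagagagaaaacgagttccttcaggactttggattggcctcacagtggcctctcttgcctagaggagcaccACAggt
Snord69, chr14:31014287-31014366, minus strand: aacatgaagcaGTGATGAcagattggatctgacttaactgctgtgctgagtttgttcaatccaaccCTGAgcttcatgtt
Snord4a, chr11:78181686-78181756, minus strand: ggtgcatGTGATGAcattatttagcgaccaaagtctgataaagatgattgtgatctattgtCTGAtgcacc
Snord12, chr2:167065276-167065365, plus strand: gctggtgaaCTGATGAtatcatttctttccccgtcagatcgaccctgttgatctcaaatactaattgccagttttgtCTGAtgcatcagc

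All 8 H/ACA members held the ACA, as did 40 of 42 annotated Snora transcripts (95.2%). All 6 C/D members held CTGA in that window, against 96 of 98 annotated Snord transcripts (98%), and 3 of 6 held NTGATGA, against 69 of 98 (70.4%). These matches describe the letters of the transcripts and bear on the class of each gene, not on its level.

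Mature sequences from RefSeq (GRCm38.p6) were matched for all 14 microRNA genes, 21 sequences with 21 different seeds, so no members shared a seed. Shown are products of Mir3064, the microRNA gene with the lowest rank number, and of the 3 microRNA genes that rose at day 5. Products of the microRNA genes with the lowest fold changes at days 5 (Mir7036b) and 7 (Mir126a) are also shown. For Mir345, Mir331 and Mir7036b both arms have a mature sequence, and the other arm is left out here. Capitals mark the seed, bases 2 to 8.
miR-3064-5p: uCUGGCUGuuguggugugcaaa
miR-3064-3p: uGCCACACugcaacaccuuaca
miR-345-5p: gCUGACCCcuaguccagugcuu
miR-331-3p: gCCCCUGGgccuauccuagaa
miR-6385: gCAAGGAUgacagagaggaag
miR-7036b-5p: aCGCGGGGuucucuguggaagc
miR-126a-3p: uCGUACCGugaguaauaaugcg

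Annotation places 27 of the 30 small RNA genes inside another gene on the same strand, 13 of 14 snoRNAs and 13 of 14 microRNA genes among them. Cytosolic ribosomal protein genes held 6 of the 14 snoRNAs. The labels describe RNA as total RNA and name an ultra-low input kit. Whether the library kept short RNAs and whether reads were counted by strand is not given in the sources used here. Exons of coding or long intergenic noncoding host transcripts overlap 6 of the small RNA genes: Mir3064, Mir7036b, Mir331, Mir8115, Mir568 and Mir1839. Exons of other host transcript types overlap 12 more. A value for a microRNA or snoRNA gene can therefore come from the mature RNA, its precursor or host RNA. The host RNA can be unspliced or, where exons overlap, spliced, and these sources cannot be told apart. The mature sequence of Mir1839 lies at chr7:81529919-81529940, inside a span annotated as a small Cajal body RNA gene of the same symbol at chr7:81529855-81529981.

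Small RNAs and long transcripts stood apart in the rank column of the table. Ranks run to 19085, the number of genes tested, and low numbers go with abundant genes such as Malat1 at 10, so the rank is read as one of mean expression. The median implied standard error at day 5 was 0.28 for ranks up to 4771 and 1.36 for ranks above 14313, where expression is lowest by this reading. Ranks of the 13 long transcripts had a median of 8598, from 10 to 15001, and those of the 30 small RNAs a median of 16486.5, from 11986 to 18865. Ranks above 14313 were held by 26 of the 30 small RNAs and 1 of the 13 long transcripts, against 16.7% of the table. Implied errors of small RNAs at day 5 ranged from 0.73 to 1.46 and those of long transcripts from 0.20 to 1.23. The smallest day 5 fold change that was called was accordingly 2.20 in absolute log2 value among small RNAs and 0.48 among long transcripts. Sizes of called changes in the 2 groups are thus not comparable.

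**Figure D1:**
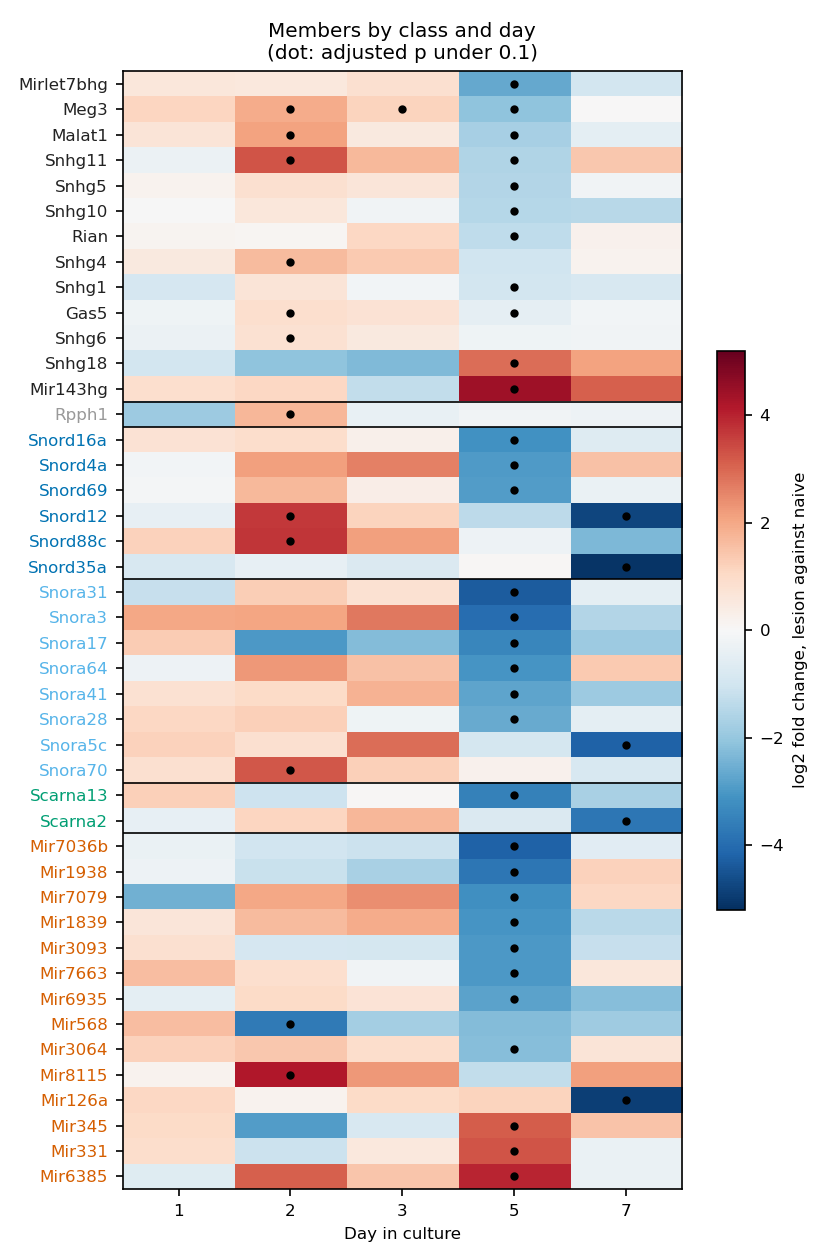
Log2 fold changes of lesion against naive (colour) for the 44 members (lines, grouped by class) at each day in culture (columns). Dots mark an adjusted p under 0.1; 11 of the 13 long transcripts and 21 of the 30 small RNAs have a dot at day 5, most of them blue (lower in lesion cultures).

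Most calls of members were rises at day 2 and falls at day 5. At day 1 no member was called by the authors' voom and limma test, where 0.618% of all genes tested and 2.03% of the table were, and 3 members had an unadjusted p under 0.05. At day 2, 12 members were called, where 5.97% of genes tested and 19.6% of the table were. Of these, 11 rose (1.89% of genes tested, 6.2% of the table) and 1 fell (4.08% and 13.4%). At day 3 Meg3 alone rose, where 1.48% of genes tested and 4.84% of the table were called and 0.534% and 1.75% rose; 10 members had an unadjusted p under 0.05. At day 5, 32 members were called, where 24% of genes tested and 78.5% of the table were. Of these, 5 rose (12.8% of genes tested, 41.8% of the table) and 27 fell (11.2% and 36.7%). At day 7, 5 were called, where 4.09% of genes tested and 13.4% of the table were. All 5 fell (0.985% and 3.23%) and none rose (3.11% and 10.2%), and 10 members had an unadjusted p under 0.05. Since passing at some day put a gene among the members, these counts describe them and are no test. The median log2 fold change over members was 1.00 at day 2 and -1.64 at day 5, and over the whole table -0.10 and 0.17.

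Among long transcripts, Meg3 and Malat1 showed the smallest p-values. Meg3 is a maternally expressed noncoding RNA of the imprinted Dlk1-Dio3 region, at chr12:109541001-109571726. Its log2 fold changes were 1.13, 1.95, 1.15, -2.11 and 0.02 at days 1, 2, 3, 5 and 7 in the authors' deposited table. Meg3 was thus higher in lesion cultures at days 2 (±0.31, adjusted p = 0.000615, voom and limma) and 3 (±0.28, adjusted p = 0.0567), and lower at day 5 (±0.36, adjusted p = 0.000137), in the authors' deposited table. It was the 1 member called at 3 days. Malat1, an abundant RNA of nuclear speckles at chr19:5795690-5802672, had values of 0.68, 2.09, 0.52, -1.72 and -0.50 over the same days in the authors' deposited table. Malat1 passed at day 2 (±0.32, adjusted p = 0.000391) and at day 5 (±0.36, adjusted p = 0.00127) in opposite directions, per the authors' deposited table.

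The snoRNA hosts Gas5 and Snhg11 also rose at day 2 and fell at day 5. Gas5, a noncoding host at chr1:161034422-161038539 which holds 10 annotated snoRNA genes, had the smaller folds. Its values were -0.22, 0.89, 0.74, -0.48 and -0.13 in the authors' deposited table, with errors from 0.20 to 0.22. Snhg11, typed as protein-coding in GENCODE and annotated with 2 snoRNA genes, had values of -0.31, 3.27, 1.69, -1.56 and 1.39 in the authors' deposited table. It rose at day 2 (±0.93, adjusted p = 0.0441) and fell at day 5 (±0.49, adjusted p = 0.0285), per the authors' deposited table. Its 2 calls had the widest span between days of the hosts named so far, with the larger error at day 2.

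Other hosts passed at a single day. Snhg4 (1.64 ± 0.55) and Snhg6 (0.77 ± 0.25) rose at day 2 in the authors' deposited table; at day 5 their values were -1.05 and -0.24 and did not pass. Snhg5, the host of Snord50a and Snord50b, fell at day 5 (-1.52 ± 0.47), as did Snhg1 (-0.96 ± 0.35), which holds 8 annotated snoRNA genes, in the authors' deposited table. Snhg10, the host of Scarna13, fell at day 5 (-1.47 ± 0.53) in the authors' deposited table, with a value of -1.44 at day 7 that did not pass. Each of these had a positive value at day 2 and a negative value at day 5.

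Rian, which lies next to Meg3 in the Dlk1-Dio3 region and holds 13 annotated snoRNA and 4 microRNA genes, fell at day 5. Its values were 0.15, 0.09, 1.08, -1.32 and 0.24 in the authors' deposited table. Rian was not called at day 2, where its error was 0.42, and its difference from Meg3 was not tested. Dlk1, the paternally expressed protein-coding gene of the region, fell at day 2 (-3.14 ± 0.84, adjusted p = 0.0336) and had a value of 1.17 at day 5, not called, in the authors' deposited table. Of 4 protein-coding genes of the region it was the 1 listed.

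MicroRNA host transcripts did not share a direction. Mirlet7bhg, the host of let-7b and let-7c-2 at chr15:85653616-85707524, fell at day 5 (-2.68 ± 0.84, adjusted p = 0.0263) in the authors' deposited table, with values from 0.54 to 0.83 at days 1 to 3. Mir143hg, whose microRNAs are known from smooth muscle, rose at day 5 (4.41 ± 1.23, adjusted p = 0.0133) per the authors' deposited table and had a value of 3.09 at day 7 that did not pass. It has rank 15001, and of the 974 listed genes with ranks above 14313, 817 rose at day 5. Snhg18 was the other long transcript to rise at day 5. Its values were -0.94, -2.07, -2.30, 2.90 and 2.08 in the authors' deposited table, with the call at day 5 (±0.81, adjusted p = 0.0137). Thus 9 of 13 long transcripts fell and 2 rose at day 5, and 6 rose and none fell at day 2. Of all listed genes, 36.7% fell and 41.8% rose at day 5, and 6.2% rose and 13.4% fell at day 2.

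Beside these 2 risen transcripts, all 8 markers of mural cells and fibroblasts rose at day 5 and 5 of 8 at day 7, among them Col1a1 (5.53 ± 0.63 at day 5 in the authors' deposited table). Of 8 neuron markers 6 are listed, with Map2 at rank 702, and 4 fell at day 5 and none rose; Map2 was at -1.70 ± 0.37 in the authors' deposited table. In bulk RNA, fewer cells of a type and less RNA per cell cannot be told apart, and the part of these shifts in the members' values was not tested. At day 2, 6 of 8 endothelial and 4 of 8 oligodendrocyte markers fell, while 2 of 8 neuron markers fell and none rose. At day 3, 3 of 8 endothelial and 2 of 8 oligodendrocyte markers fell, and 1 of 8 neuron markers rose. Of 8 microglial markers 3 are listed, and 2 fell at day 1, Csf1r and Cd14. Tmem119 rose at day 5 (5.06 ± 1.04) and day 7 (4.60 ± 1.12) in the authors' deposited table. Csf1r was at -0.12 and 1.09 at those days and Cd14 at -1.43 and -2.69, none of them called, so the listed microglial markers did not share a direction. Astrocyte markers rose at day 5 (2 of 8). Beside these marker counts, 0.529% of all genes tested fell at day 1, 4.08% at day 2, 0.943% at day 3 and 11.2% at day 5. At days 2, 3, 5 and 7, 1.89%, 0.534%, 12.8% and 3.11% of all genes tested rose.

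**Figure D2:**
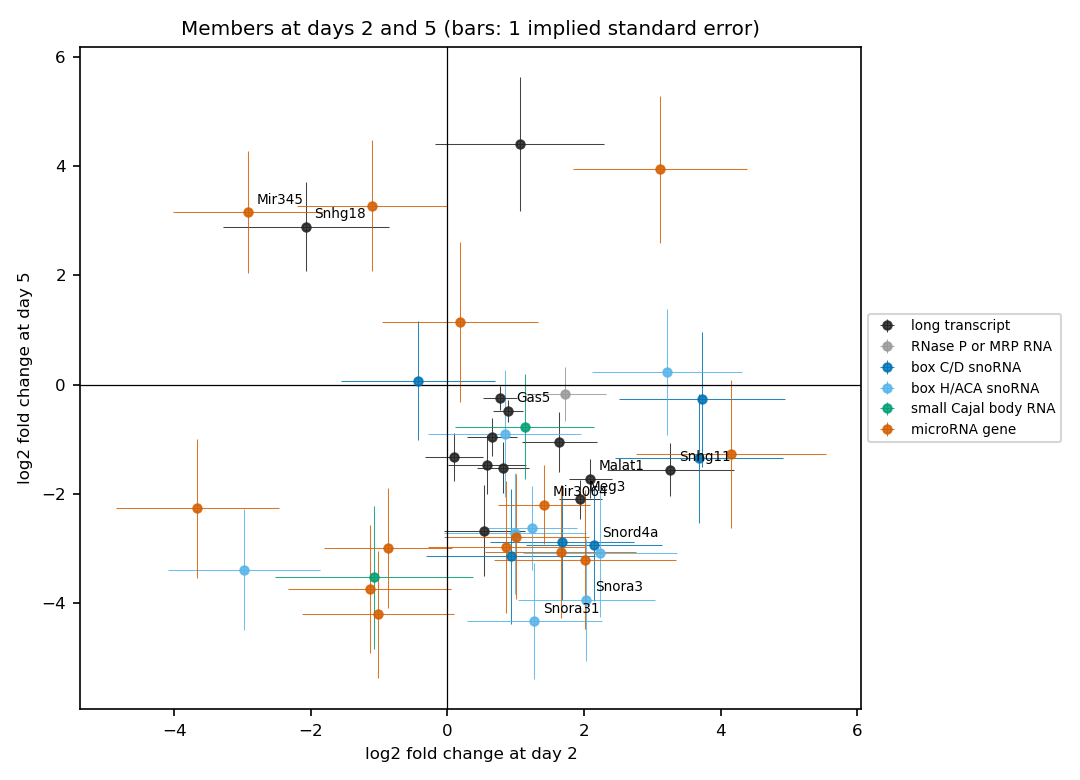
Log2 fold change at day 2 (horizontal) against day 5 (vertical) for each member, with bars of 1 implied standard error. Most points lie at the lower right, positive at day 2 and negative at day 5: 30 of 44 members, 11 of 13 long transcripts and 18 of 30 small RNAs. Of all 5826 listed genes, 1285 (22.1%) had these signs. The same daily values admitted the members to the table, so the counts are a description.

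Box H/ACA snoRNAs were the class with the highest share of members fallen at day 5 among snoRNAs, 6 of 8, with a median of -2.90. By comparison, 36.7% of all listed genes fell at that day. Snora31, inside the gene of the translationally controlled tumour protein Tpt1, had values of -1.20, 1.27, 0.79, -4.33 and -0.49 per the authors' deposited table, and fell at day 5 (±1.06, adjusted p = 0.00505). Snora3, inside Rpl27a, had values of 2.00, 2.03, 2.72, -3.94 and -1.51 per the authors' deposited table, and fell at day 5 (±1.12, adjusted p = 0.0151). Snora28, inside the translation initiation gene Eif5, had values of 1.08, 1.25, -0.22, -2.62 and -0.51 per the authors' deposited table, and fell at day 5 (±0.77, adjusted p = 0.0176). Tpt1, Rpl27a and Eif5 themselves are not among the listed genes. Snora17, Snora41 and Snora64 also fell at day 5, with -3.39, -2.72 and -3.08 in the authors' deposited table; Snora17 was also negative at day 2 (-2.97, adjusted p = 0.131). Snora70, inside Rpl10, rose at day 2 (3.22 ± 1.09), and Snora5c fell at day 7 (-4.21 ± 1.28), in the authors' deposited table.

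Box C/D snoRNAs gave 3 fallen of 6 at day 5, 2 risen at day 2 and 2 fallen at day 7. The matching shares of all listed genes were 36.7%, 6.2% and 3.23%. Snord4a, inside Rpl23a, had values of -0.13, 2.15, 2.63, -2.94 and 1.54 per the authors' deposited table and fell at day 5 (±1.02, adjusted p = 0.0452). Snord16a, inside Rpl4, and Snord69, inside the nucleolar GTPase gene Gnl3, fell at day 5 by 3.15 and 2.89 in the authors' deposited table. Snord88c rose at day 2 (3.72 ± 1.21) per the authors' deposited table and had a value of -0.27 at day 5. Snord12, inside the noncoding host Zfas1, was the 1 small RNA called at 2 days. Its values were -0.41, 3.68, 1.16, -1.35 and -4.76 in the authors' deposited table, a rise at day 2 (adjusted p = 0.0891) and a fall at day 7 (adjusted p = 0.0412). Snord35a, inside Rpl13a, had values between -0.84 and 0.07 up to day 5 and fell at day 7 (-5.10 ± 1.20, adjusted p = 0.0175) in the authors' deposited table. Day 7 rests on 2 naive libraries.

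Both small Cajal body RNAs were called at a single day. Scarna13 fell at day 5 (-3.53 ± 1.31) and Scarna2 fell at day 7 (-3.78 ± 1.16) in the authors' deposited table. Rpph1, the catalytic RNA of RNase P, which trims the 5′ ends of transfer RNA precursors, had values of -1.89, 1.73, -0.37, -0.17 and -0.28 in the authors' deposited table. Rpph1 rose at day 2 (±0.59, adjusted p = 0.0951), while its day 1 value (±0.58, adjusted p = 0.171) did not pass, per the authors' deposited table.

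Of 14 microRNA genes, 8 fell and 3 rose at day 5. Their share called, 78.6%, was near that of all listed genes, 78.5%. Of listed genes 36.7% fell and 41.8% rose. Mir3064, which overlaps exons of coding transcripts of the RNA helicase gene Ddx5, had values of 1.22, 1.42, 0.91, -2.20 and 0.66 per the authors' deposited table, and fell at day 5 (±0.73, adjusted p = 0.0359). Mir7036b, which overlaps an exon of the actin-capping cytoskeletal gene Add1, fell at day 5 (-4.21 ± 1.16, adjusted p = 0.0127) with values of -0.34, -1.01 and -1.12 at days 1 to 3 in the authors' deposited table. Mir1938, Mir1839, Mir3093, Mir6935, Mir7079 and Mir7663 fell at day 5 with values from -3.75 to -2.79 in the authors' deposited table. Of the 8 fallen, 4 were positive at every one of days 2 and 3 (Mir3064, Mir1839, Mir6935 and Mir7079), and 3 were negative at both (Mir7036b, Mir1938 and Mir3093).

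MicroRNA genes that rose at day 5 were Mir345 (3.15 ± 1.12), Mir331 (3.28 ± 1.20) and Mir6385 (3.94 ± 1.35) in the authors' deposited table. Mir345 had a value of -2.92 at day 2 (adjusted p = 0.131) and Mir6385 of 3.11 (adjusted p = 0.172) in the authors' deposited table, so the risen genes did not share a day 2 direction. At day 2, Mir8115 rose (4.15 ± 1.39) and Mir568 fell (-3.66 ± 1.19) in the authors' deposited table. Mir126a, whose product is known from endothelium and which lies in Egfl7, fell at day 7 (-4.90 ± 1.49, adjusted p = 0.0791) after values from 0.19 to 1.15 in the authors' deposited table. No endothelial marker of 8 was called at day 7, and Egfl7 is not listed; at day 2, when 6 fell, Mir126a was at 0.19 ± 1.14.

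**Figure D3:**
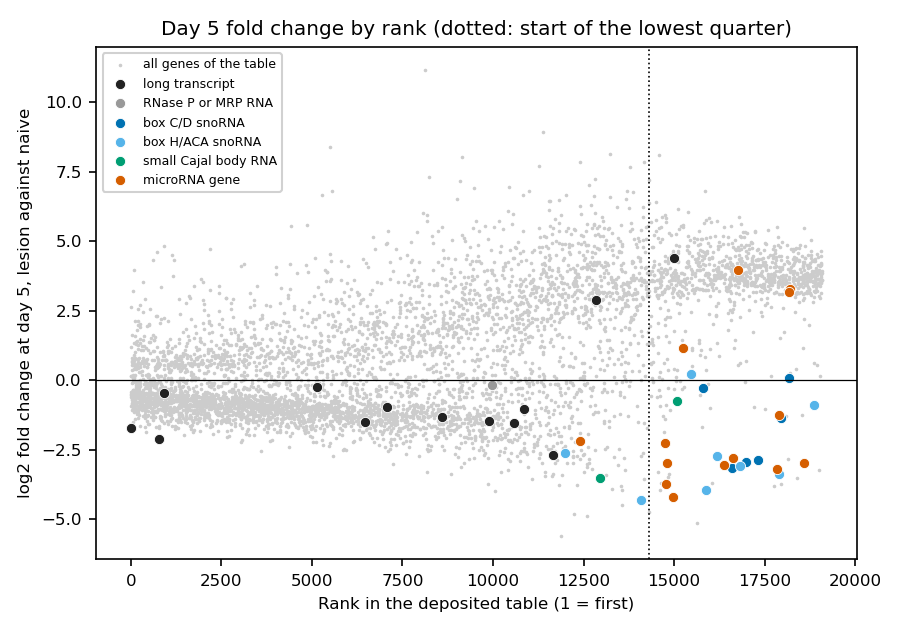
Log2 fold change at day 5 against the rank of each gene in the table, for all 5826 genes (grey) and the members by class (colours). Right of the dotted line, at ranks above 14313, the grey points lie mostly above 0 and most snoRNAs and microRNA genes below it.

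At day 5 the weakly expressed small RNAs and the other listed genes of like rank had medians of opposite sign. Of the 947 listed genes with ranks above 14313 that are not members, 813 rose and 15 fell at day 5. Of the 26 small RNAs in that range, 3 rose and 14 fell, and the 12 snoRNAs among them gave 7 fallen and none risen. Median log2 fold changes of the 947 genes were -1.32, 0.84, -1.36, 3.72 and 0.10 at days 1, 2, 3, 5 and 7. Those of the 26 small RNAs were 0.69, 1.00, 1.08, -2.76 and -1.02, of the other sign at every day but day 2. Genes of this rank entered the table mostly by rising at day 5, which is a property of the list, and the difference has no test.

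The 5 daily fold changes of each listed gene were also compared with each other, as an F statistic on the implied errors, with p-values adjusted over 19085 genes (Benjamini-Hochberg) and unlisted genes set to a p of 1. The same daily values admitted the genes to the table, so these p-values describe the members and are no independent test. They were under 0.05 for 15 of 44 members (34.1%) and for 51.2% of the table. The 15 were 6 of 13 long transcripts, 6 of 14 snoRNAs, 2 of 14 microRNA genes and Rpph1. Meg3 (adjusted p = 4.59e-06) and Malat1 (1.68e-05) had the smallest values, followed by Gas5 (0.0019). Among small RNAs Snora3 (0.00500) and Snord12 (0.00806) were lowest.

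Day 5 set against day 2 alone, a comparison chosen with the values in view and subject to the same limit, gave an adjusted p under 0.05 for 18 members and for 33.4% of the table. Of the 18, 16 were lower at day 5 than at day 2, while among all 1945 such genes 848 were. Differences were -4.05 ± 0.48 for Meg3, -3.81 ± 0.48 for Malat1, -1.37 ± 0.29 for Gas5 and -2.34 ± 0.60 for Snhg5, on the log2 scale. The small RNAs among the 16 were Snora3 (-5.98 ± 1.50), Snora31 (-5.61 ± 1.45), Snora64 (-5.32 ± 1.63), Snord4a (-5.09 ± 1.42), Snord69 (-4.57 ± 1.49), Snora28 (-3.87 ± 1.01) and Mir3064 (-3.62 ± 0.99). Those that were higher at day 5 were Mir345 (6.07 ± 1.56) and Snhg18 (4.97 ± 1.46).

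**Figure D4:**
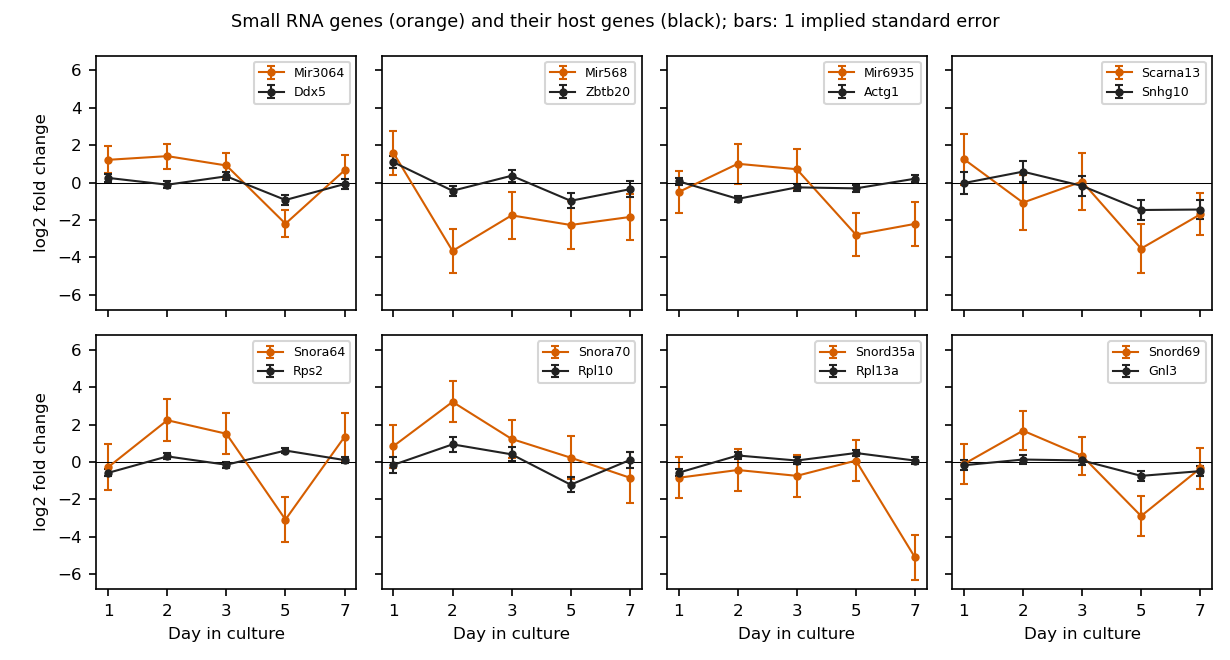
Log2 fold change by day in culture for the 8 small RNA genes (orange) whose host gene (black) is also in the table, with bars of 1 implied standard error. Small RNA values lie further from 0 than the host's in all 8 pairs at day 2 and in 6 of 8 at day 5, and their bars are longer. With larger errors, small RNAs were called only at larger folds, so these distances are not comparable.

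Host and small RNA could be set side by side in 8 pairs; for the other 19 small RNAs inside a gene, the host is not listed. At day 5 both members of a pair passed in 4 cases, 3 in the same direction and 1 in the opposite one. Mir3064 (-2.20) fell with Ddx5 (-0.93 ± 0.24), Snord69 (-2.89) with Gnl3 (-0.74 ± 0.28), and Scarna13 (-3.53) with Snhg10 (-1.47), in the authors' deposited table. Snora64 fell (-3.08 ± 1.19) while its host Rps2, a small ribosomal subunit protein gene, rose (0.61 ± 0.16, adjusted p = 0.00765) in the authors' deposited table.

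In the remaining pairs, calls fell on different days or on a single partner. Rpl13a rose at day 5 (0.48 ± 0.16), when Snord35a was at 0.07 ± 1.09, and was at 0.08 at day 7, when Snord35a fell, in the authors' deposited table. Rpl10 fell at day 5 (-1.21 ± 0.40) and was at 0.94 at day 2, when Snora70 rose, in the authors' deposited table. Zbtb20 fell at day 5 (-0.98 ± 0.41) and was at -0.44 at day 2, when Mir568 fell, in the authors' deposited table. Actg1, the gamma-actin gene, fell at day 2 (-0.87 ± 0.17), when Mir6935 was at 1.01 ± 1.06, in the authors' deposited table. The median of small RNA minus host was 1.54 at day 2 and -1.68 at day 5, with day 5 differences from -3.69 to 1.45. Pairs share libraries and possibly reads, so this difference has no test. Small RNAs were called only from 3.22 at day 2 and 2.20 at day 5 in absolute log2 value. Their errors are larger than those of the hosts, so the sizes of small RNA and host values are not comparable.

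The long hosts hold many annotated small RNA genes that are not listed. None of the 10 in Gas5, 8 in Snhg1, 2 in Snhg5 or 2 in Mirlet7bhg is in the table. Of 17 in Rian 1 is listed, and of 2 in Snhg10 1 is, Scarna13.

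Proteins that make or act on these RNAs were followed through fixed lists. Of 26 snoRNA-particle and assembly genes, 6 are listed. At day 5, 2 rose, the H/ACA particle genes Dkc1 (1.48 ± 0.41), the pseudouridine synthase, and Nhp2 (0.79 ± 0.19), and 2 fell, the C/D core gene Nop56 (-0.60 ± 0.20) and the chaperone adaptor Rpap3 (-0.95 ± 0.28), in the authors' deposited table. Of all genes tested, 12.8% rose and 11.2% fell at day 5. At the same day 6 H/ACA snoRNAs of 8 and 3 C/D snoRNAs of 6 fell, where 36.7% of listed genes did. A relation between the particle genes and the snoRNAs was not tested. At day 2 Ncl, the gene of nucleolin, fell (-0.53 ± 0.15) and so did Tcof1 (-1.08 ± 0.37) in the authors' deposited table.

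Of 26 microRNA processing and silencing genes 12 are listed, and at day 5, 8 fell and 1 rose, where 11.2% of genes tested fell and 12.8% rose. Among the fallen were Drosha (-1.17 ± 0.40), the nuclease that cuts primary microRNA transcripts, Ddx5 and the silencing scaffold gene Tnrc6c (-1.69 ± 0.40) in the authors' deposited table. Lin28b, a repressor of let-7 maturation, rose at day 5 (4.27 ± 1.17, adjusted p = 0.0123) in the authors' deposited table, a low-ranked gene (16878). Mirlet7bhg fell at that day, and of its 2 annotated microRNA genes 0 are listed. A link between Lin28b and this transcript was not tested. Of 974 listed genes with ranks above 14313, 817 rose at day 5. Dgcr8, the partner of Drosha, fell at day 2 (-1.50 ± 0.45), and Ago3 rose at day 2 (1.14 ± 0.35), in the authors' deposited table.

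Among decay and nuclear body genes, falls outnumbered rises at day 5. In nonsense-mediated decay 6 of 16 genes are listed and all 6 fell, with the kinase gene Smg1 at -1.83 ± 0.50 in the authors' deposited table. Of 16 paraspeckle and speckle genes 8 fell and none rose. These included Srrm2 (-1.44 ± 0.30), Sf3b1 (-1.09 ± 0.20) and Son (-1.08 ± 0.22), proteins of the compartment where Malat1 resides, in the authors' deposited table. Son rose at day 2 (0.65 ± 0.17) and day 3 (0.76 ± 0.18) in the authors' deposited table, as Malat1 did at day 2. Of 24 exosome and trimming genes 3 fell and 1 rose at day 5, the exosome subunit gene Exosc5 (1.26 ± 0.28) in the authors' deposited table. Zfc3h1, of the same list, rose at day 2 (0.93 ± 0.24) and fell at day 5 (-1.20 ± 0.32) in the authors' deposited table. Of 11 RNase P and MRP protein genes, Rpp25 alone is listed and fell at day 5 (-1.24 ± 0.36) in the authors' deposited table. Set beside these counts, 11.2% of all genes tested fell at day 5.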

How the data were processed

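The submitters' processing notes name STAR and mm10; how reads were counted and scaled is not given in the sources used here. Per day, the authors deposited a log2 fold change, its p-value and an adjusted p-value, made with voom and limma at a false discovery rate of 0.1 per the name of the deposited table. A deposited rank score has no stated unit. Adjusted p-values were rebuilt for 19085 tests per day. Standard errors were implied by fold change and p at 40 degrees of freedom, where they depended least on p among ranks up to 4771. Genes were annotated with GENCODE vM21 for 43 of 44 members, and hosts were same-strand genes that span a small RNA gene. Work used Python 3.11.15, pandas 2.3.3, scipy 1.17.1 and matplotlib 3.10.9; the day test was tested on simulated data. Members and lists were chosen with earlier results of these data known. Named genes are all long transcripts, Rpph1, small RNAs called at 2 or more days, up to 3 per class and day by adjusted p, those with a listed host, and up to 3 per list and day; further members, markers and list genes were named after their values were seen. Alternatives were other thresholds, a minimum fold, ranks above 14313 left out, other degrees of freedom and day 7 left out.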

Additional observations from a re-analysis of the deposited data

Results flagged for a closer look

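For 15 members the F statistic of heterogeneity over the 5 daily fold changes gave an adjusted p under 0.05 (over 19085 genes, unlisted genes set to a p of 1). The same daily values admitted these genes to the table, so the p-values are descriptions and no independent test of a difference between days. Among long transcripts, adjusted p-values were 4.59e-06 for Meg3, 1.68e-05 for Malat1, 0.0019 for Gas5, 0.00299 for Snhg11, 0.0123 for Snhg18 and 0.0346 for Snhg5. Among snoRNAs they were 0.00500 for Snora3, 0.00806 for Snord12, 0.0236 for Snord4a, 0.0265 for Snora5c, 0.0308 for Snora31 and 0.0354 for Snora28. MicroRNA genes gave 0.0363 for Mir345 and 0.0414 for Mir3064, and Rpph1 gave 0.0245. Snord12 (0.138) and Snora5c (0.596) no longer passed with day 7 left out, where naive cultures have 2 libraries. The errors behind these tests were implied from p-values, not read from libraries.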

How the results depend on the processing

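Counts of members called depended on the threshold. At an adjusted p under 0.05, 4 members were called at day 2, 0 at day 3, 18 at day 5 and 2 at day 7, and under 0.01 the counts were 2, 0, 3 and 0. Of 50 calls of a member at a day, 24 passed 0.05 and 5 passed 0.01. With ranks above 14313 left out, 7 members were called at day 2, 14 at day 5 and 0 at day 7. Of small RNAs, 4 fell and 0 rose at day 5, 0 rose and 0 fell at day 2 and 0 fell at day 7, and of long transcripts 1 rose at day 5, since 4 of 30 small RNAs have a rank within that limit. Without small RNA genes inside a listed gene, 0 small RNAs fell at day 2. At an adjusted p under 0.05, list genes called at day 5 were 2 for the exosome and 2 for nonsense-mediated decay, and all 7 lists gave 4 at day 2. With 19 degrees of freedom Mir3064 (0.0546) and Mir345 (0.0518) no longer passed the day test, and 42 of 44 members kept their side. The alternatives kept each deposited fold change as it was. The direction of a gene at a day could therefore not reverse, and its stability was not tested. No paired analysis was possible because the deposited values are comparisons without values per library; leaving out replicates was not run for the same reason. Depth and counting error are unknown here.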

Other observations

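The table lists 3 further genes annotated as snoRNA or microRNA whose symbols the membership rule does not cover, found after their values were seen. They are AF357425 and AF357399, annotated as snoRNAs, and Mir129-1. All 3 have ranks above 14313 and fell at day 5, with -3.95 ± 1.04 for AF357425, -3.71 ± 1.18 for AF357399 and -3.80 ± 1.24 for Mir129-1 in the authors' deposited table. AF357425, which lies in Rian, rose at day 2 (3.48 ± 1.03, adjusted p = 0.0564), and AF357399 fell at day 7 (-4.49 ± 1.29, adjusted p = 0.0585), in the authors' deposited table. With the 14 members, 17 of the 29 genes of that rank that fell at day 5 are thus snoRNA or microRNA genes. Of all 974 listed genes of that rank, 26 are small RNA members, and the 3 further genes named here come on top of these.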
